A study of Mus musculus with 42 samples.

Results

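The 33 genes described here mark macrophages and other leukocytes or encode complement proteins, MHC class II proteins, chemokines and the growth factors of macrophages. They were taken by gene symbol from a list of names, out of 54532 genes in the count tables of mouse kidneys, and each symbol matched a single gene in all 3 cohorts. Of these, 13 are macrophage and leukocyte genes: Adgre1, Csf1r, Lyz2, Cd14, Mrc1, Itgam, Itgax, Tyrobp, Fcer1g, Cx3cr1, Ptprc, Aif1 and Trem2. The others are the 3 C1q chains C1qa, C1qb and C1qc; the 4 MHC class II genes H2-Aa, H2-Ab1, H2-Eb1 and Cd74; the 3 complement genes C3, C4b and Cfb; the 7 chemokines Ccl2, Ccl5, Ccl7, Cx3cl1, Cxcl1, Cxcl10 and Cxcl16; and the 3 signals Csf1, Il34 and Tnf.

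Kidney macrophages carry surface receptors such as CSF1R, CD14 and CX3CR1, and they make the C1q chains, which bind antibodies and dying cells and start the classical complement pathway. C4 acts in that pathway, factor B in the alternative pathway, and C3 is cleaved in both; C3 and C4 are also made by injured kidney tubules. MHC class II proteins present peptides to T cells, chemokines draw leukocytes into tissue, and CSF1 and IL-34 are both ligands of CSF1R that keep macrophages alive.

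The study asked what loss of the transcription factor Tfeb does in kidneys that lack Tsc2, the gene of a brake on the growth kinase mTORC1. RNA was read from 42 whole kidneys of mice on a C57BL/6 background, 3 mice in each of 14 groups. In the Cagg cohort CaggCreERT2, a Cre recombinase active in the whole body once tamoxifen is given, was switched on in pups through tamoxifen given to their lactating mothers, and kidneys were taken at P30 (postnatal day 30) from controls labelled wild type, Tsc2 KO, Tfeb KO and DKO mice (Tsc2 and Tfeb both lost). In the KSP cohort KspCre, driven by the Cadh16 promoter of tubular epithelium, gave the same 4 groups at P50. By the study's methods Cagg controls carried the Cre and KSP controls lacked it. In the KSP drug cohort, also at P50, control, Tsc2 KO and DKO mice received vehicle or Rapamycin, an inhibitor of mTORC1, at 1 mg/kg in 11 injections. KspCre deletes in tubular cells and not in leukocytes, whereas the Cagg deletion can also reach leukocytes, and a whole kidney keeps transcripts of the target genes from undeleted cells.

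Libraries held 14926050 to 22807605 counted reads. Tsc2 was at 8.18 to 10.6 FPKM (fragments per kilobase of gene, scaled to library size) in control libraries of the 3 cohorts and at 3.55 to 6.50 FPKM in Tsc2 KO libraries. In the drug cohort it was at 3.80 to 4.47 FPKM in Tsc2 KO vehicle, 5.06 to 6.50 in Tsc2 KO with Rapamycin and 5.53 to 6.41 in DKO vehicle. In the KSP cohort it was at 3.55 to 4.37 FPKM in Tsc2 KO and 5.17 to 5.81 in DKO. The part of these shifts in the results was not tested. In the Cagg cohort, 4 of 12 library names differed between the count table and the FPKM table, and 2 of these differed in genotype (Tfeb KO against DKO). Groups follow the FPKM table here. With its names Tsc2 was at 9.06 to 10.2 FPKM in Tfeb KO and at 4.82 to 5.64 FPKM in DKO. The count-table names would count 1 library with Tsc2 in that Tfeb KO range as DKO, and 1 in that DKO range as Tfeb KO. Tfeb was at 4.57 to 8.33 FPKM in Cagg control and Tsc2 KO libraries, 2.73 to 3.73 in Cagg Tfeb KO and 1.99 to 3.48 in Cagg DKO. In the KSP cohort it was at 5.85 to 6.24 FPKM in control, 3.66 to 6.12 in Tsc2 KO and 4.32 to 5.25 in Tfeb KO, and at 2.65 to 4.09 in DKO, which overlapped Tsc2 KO. With vehicle it was at 5.58 to 6.09 FPKM in Tsc2 KO and 2.57 to 3.18 in DKO, and with Rapamycin at 3.97 to 6.62 and 3.26 to 3.29. The sexes were not balanced in the Cagg cohort: 3 control libraries were male by Xist and Ddx3y, against 1 of 3 Tsc2 KO, 0 of 3 Tfeb KO and 2 of 3 DKO libraries, while all KSP libraries were female. Replicate 1 of untreated KSP DKO stood apart in almost every gene described here, so KSP DKO results are given with and without it. The 12 kidney tubule markers summed to 3811 to 4364 FPKM in Cagg controls and 1633 to 2339 in Cagg Tsc2 KO, to 3826 to 4203 and 3295 to 4012 in the KSP cohort, and to 3163 to 3938 and 1959 to 3133 in the vehicle arms; their part in the results was not tested. In bulk kidney RNA, fewer cells of a type and less RNA per cell cannot be told apart, and neither can more of either.

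The quasi-likelihood test of edgeR was run on each cohort, with Benjamini-Hochberg adjustment over all genes tested. Below, a gene rose or fell where its adjusted p was 0.05 or lower and its mean was at least 5 FPKM in a group compared. The test covered 31 of the 33 genes in the Cagg and drug cohorts and 32 in the KSP cohort. Tnf was filtered out everywhere, with 0 to 0.424 FPKM outside KSP DKO replicate 1, and Ccl7 was filtered out of the Cagg and drug cohorts. Changes are log2 fold changes ± SE from the counts, and levels are FPKM of replicates 1, 2 and 3.

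Many of these genes were higher in Tsc2 KO than in control. In the vehicle arms of the drug cohort, 15 of the 18 genes at the FPKM minimum rose in Tsc2 KO against control, where 23.8% of all tested genes at that minimum rose, and 1 (Csf1r) fell, where 24.6% of all genes fell. Some genes reached the minimum only through Tsc2 KO: control vehicle means were 2.77 FPKM for Cd14, 3.20 for Tyrobp, 4.34 for C1qc and 1.24 for C4b. Cfb was lower at the adjusted p but stayed under the minimum, so it was not counted. The genes were chosen with earlier results of these data known, so these counts are descriptions and not a test of the set. In the Cagg cohort 11 of 17 rose, against 23.0% of all genes, and 4 under the count-table names. In the KSP cohort 3 of 17 rose, against 9.42% of all genes, and 10 rose once KSP DKO replicate 1 was left out of the fit. The median log2 fold change of the genes tested was 0.79 in the Cagg cohort, 1.13 in the KSP cohort and 1.61 in the vehicle arms, against 0.00, -0.01 and 0.01 over all genes tested. C3 and Cxcl16 rose in all 3 cohorts (in the Cagg cohort not under the count-table names described above, adjusted p = 0.062 and 0.073), 9 genes rose in 2 cohorts and 5 in 1 cohort.

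**Figure D1:**
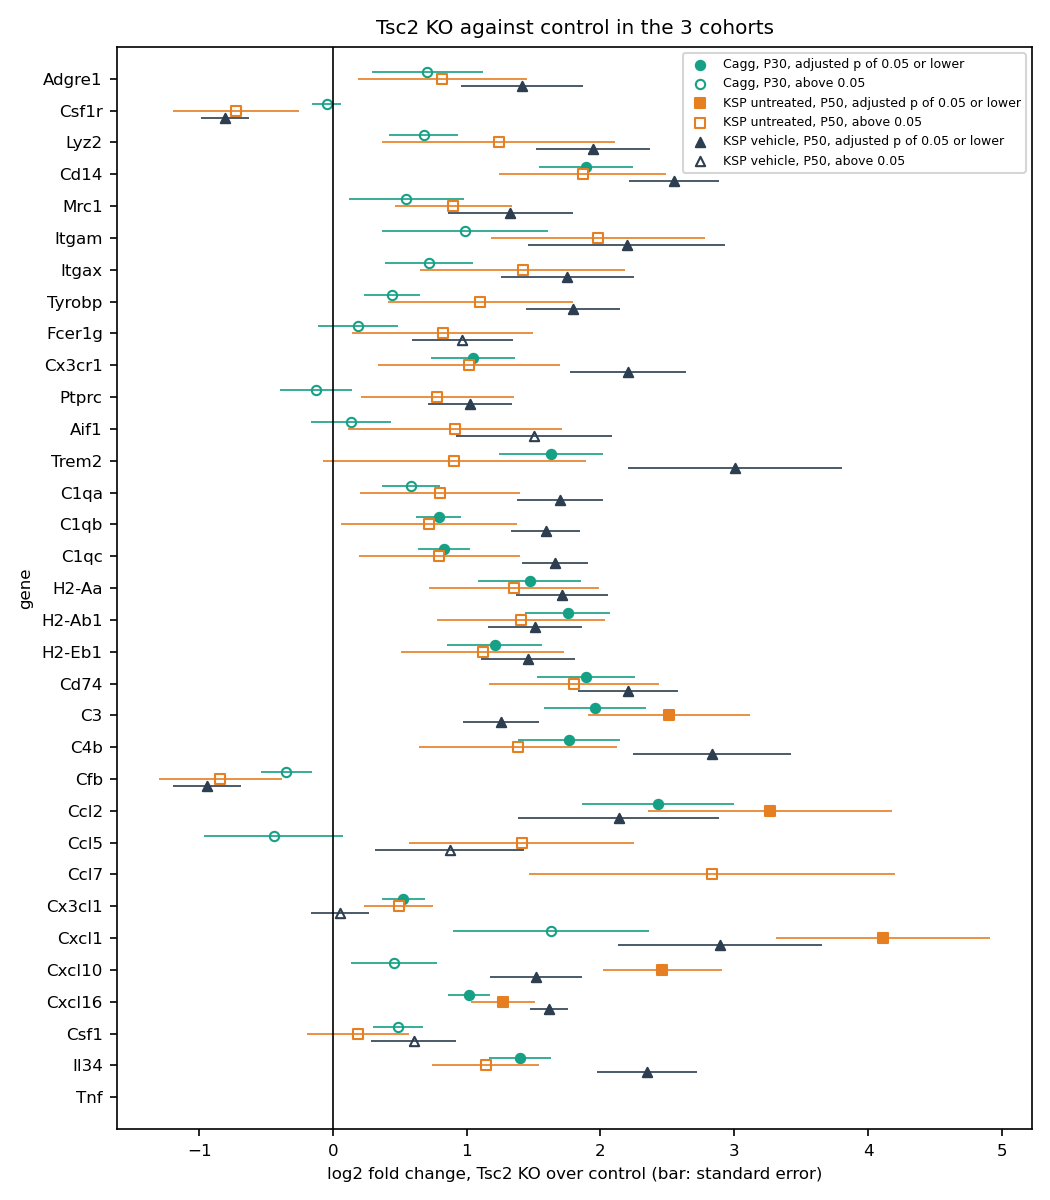
Log2 fold change with its SE for each gene in Tsc2 KO against control in the Cagg, KSP and drug (vehicle) cohorts. Filled points passed an adjusted p of 0.05 whatever their FPKM. Most points lie to the right of 0, while Csf1r (-0.05, -0.72 and -0.81) and Cfb (-0.35, -0.84 and -0.94) lie to its left.

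Kidneys that lost Tfeb as well as Tsc2 were compared with Tsc2 KO kidneys in each cohort. In DKO vehicle against Tsc2 KO vehicle, C1qa, C1qb, C1qc, Cd14, Cxcl16 and Il34 fell, 6 of 18 against 12.6% of all genes, and none rose. Kidney tubule markers also differed here, at 1959 to 3133 FPKM summed in Tsc2 KO vehicle and 4108 to 4901 in DKO vehicle. Their part in the lower levels of these 6 genes was not tested. In Cagg DKO against Cagg Tsc2 KO, Cxcl10 rose, 1 of 18 against 6.91% of all genes, which is near that share, and none fell. In untreated KSP DKO against KSP Tsc2 KO, 0 of 19 genes passed in edgeR, where 0.286% of all genes changed, and 3 genes were at an unadjusted p under 0.05. DESeq2 also called 0. The difference between the cohorts in the DKO effect was not tested.

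Against control, 9 of 17 genes rose in Cagg DKO (10.2% of all genes): Cd14, H2-Aa, H2-Ab1, H2-Eb1, Cd74, C3, Cxcl10, Cxcl16 and Il34. The count was 5 without Cagg DKO replicate 1 or Cagg control replicates 1 or 3. It was 0 under the count-table names, which count a library with the Tsc2 level of Tfeb KO as DKO. In DKO vehicle, Cd74, Cxcl10 and Cxcl16 rose, 3 of 16 (5.37% of all genes), and Csf1r fell (3.05% of all genes). In untreated KSP DKO, Cxcl10 and Cxcl16 rose, 2 of 19 (2.33% of all genes). Leaving out 1 library gave 1 to 5 genes, with 5 without KSP DKO replicate 2 and 1 without KSP DKO replicate 1 or any control. The DKO comparisons with control and with Tsc2 KO share their DKO libraries.

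Rapamycin in Tsc2 KO lowered 9 of 18 genes, against 17.3% of all genes: C1qa, C1qb, C1qc, Cd14, Tyrobp, C3, C4b, Cxcl16 and Il34. In DKO it lowered 3 of 16 (C1qb, C1qc and Cxcl10, against 4.70% of all genes) and raised Csf1r (2.73% of all genes). Without any 1 of the 6 libraries these 4 calls became 1 or 2, and DESeq2 made 8 (7 lower, 1 higher). A test of the difference of the Rapamycin effects found a more negative effect in Tsc2 KO than in control for 6 of 19 genes (12.5% of all genes), namely C1qa, Cd14, Tyrobp, C3, Cxcl16 and Il34, and for 10 without Tsc2 KO vehicle replicate 1. Between DKO and Tsc2 KO the Rapamycin effect was more negative in DKO for 1 of 18 genes, Cxcl10 (8.11% of all genes), and less negative for 1 of 18, Cxcl16 (2.93% of all genes).

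With Tfeb loss alone or Rapamycin alone, none of these genes passed in edgeR with its low-count filter. In Cagg Tfeb KO, 0 of 16 passed (0.0256% of all genes) with 2 at an unadjusted p under 0.05; in KSP Tfeb KO, 0 of 15 (0% of all genes) with 2; and in control mice given Rapamycin, 0 of 12 (0.0664% of all genes) with 1. DESeq2 also called 0 in each of these. Without the low-count filter edgeR called 1 gene in Cagg Tfeb KO.

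**Figure D2:**
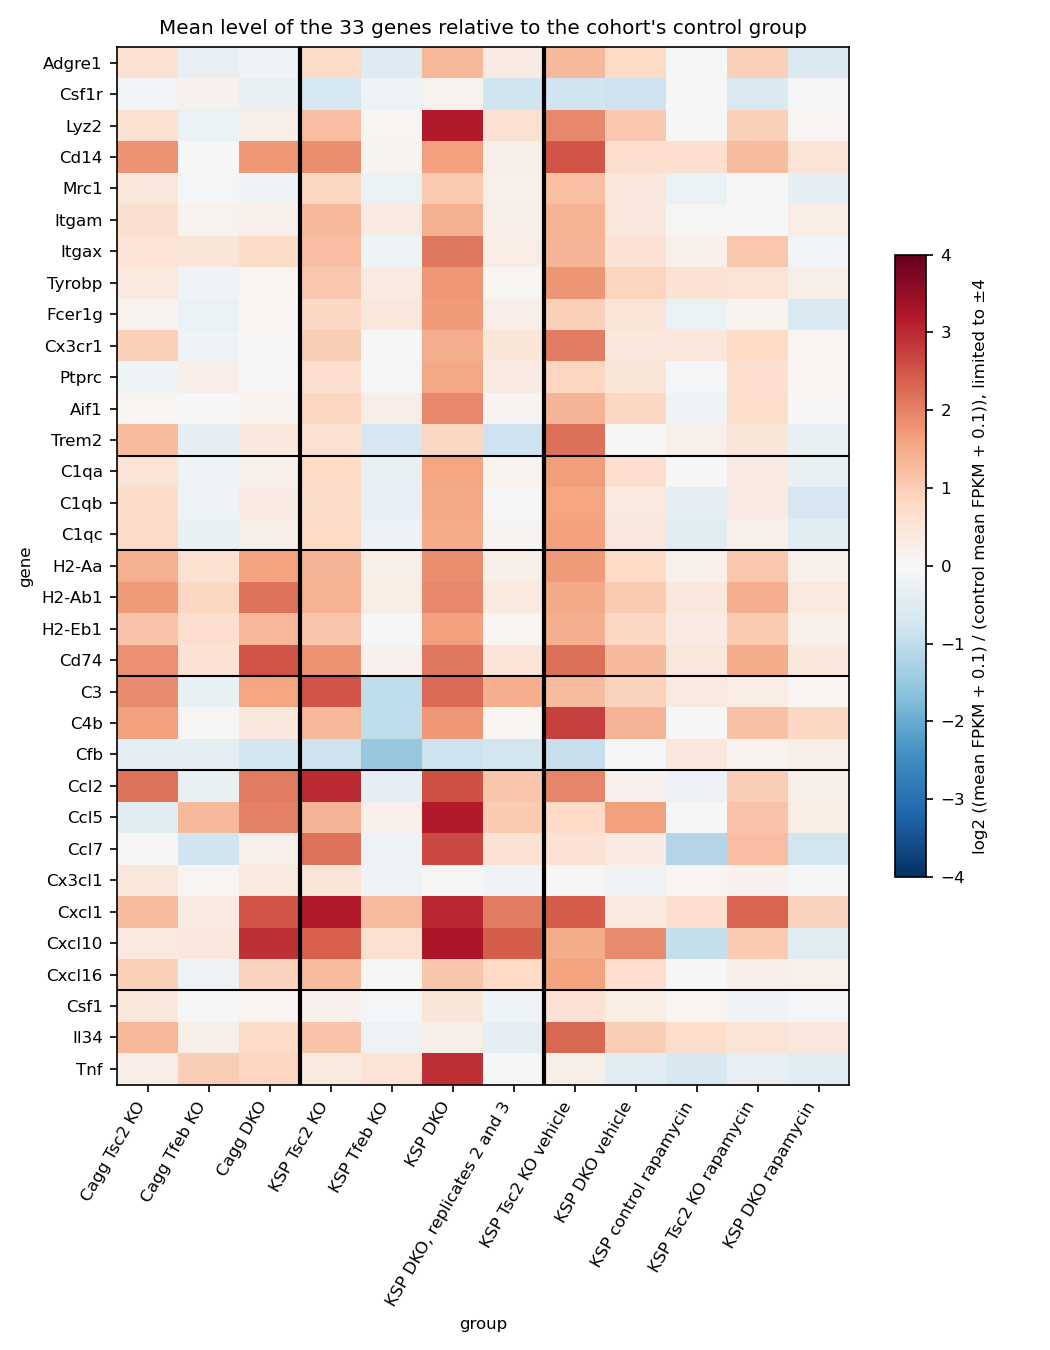
Log2 ratio of the group mean FPKM to the mean of its control, after adding 0.1 FPKM to both, limited to 4 in either direction, for the genes (vertical) in the groups other than controls and in Rapamycin-treated controls (horizontal). KSP DKO is drawn with all libraries and with replicates 2 and 3 only; its colours for most genes are far stronger with replicate 1 included.

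Among the macrophage and leukocyte genes, Cd14 rose in Tsc2 KO against control in the Cagg cohort and the vehicle arms, and Csf1r did not rise in Tsc2 KO against control in any cohort. Cd14 (chr18:36725074-36726736, minus strand; all positions are on mm10), the co-receptor for bacterial lipopolysaccharide, was at 6.49, 6.14 and 3.58 FPKM in Cagg controls and 21.6, 20.0 and 15.8 in Cagg Tsc2 KO. In the drug cohort it was at 2.24, 3.37 and 2.71 FPKM in control vehicle, 22.3, 14.5 and 11.7 in Tsc2 KO vehicle and 3.74, 4.25 and 5.34 in DKO vehicle. The Tsc2 KO libraries lay above all control libraries in both cohorts, and DKO vehicle lay between them without overlap. Cd14 rose by 1.89 ± 0.35 on the log2 scale in Cagg Tsc2 KO (adjusted p = 0.0017) and by 2.55 ± 0.34 in Tsc2 KO vehicle (adjusted p = 2.4e-05). In DKO vehicle Cd14 fell against Tsc2 KO vehicle (log2 fold change -1.86 ± 0.33, adjusted p = 0.00072). With Rapamycin, Tsc2 KO kidneys were at 6.39, 3.36 and 10.8 FPKM, all under the lowest vehicle library (log2 fold change -1.24 ± 0.32, adjusted p = 0.0082). In Cagg DKO Cd14 was at 28.9, 15.7 and 9.92 FPKM, above every Cagg control (log2 fold change 1.79 ± 0.35, adjusted p = 0.0061 against control).

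Csf1r (chr18:61105572-61132149, plus strand), the receptor of CSF1 and IL-34, was at 14.9, 11.3 and 12.7 FPKM in control vehicle, 5.61, 10.0 and 6.63 in Tsc2 KO vehicle and 6.74, 8.04 and 6.97 in DKO vehicle. Both mutant groups lay below the controls, and Csf1r fell in Tsc2 KO (log2 fold change -0.81 ± 0.18, adjusted p = 0.002) and in DKO (log2 fold change -0.84 ± 0.18, adjusted p = 0.012). In DKO kidneys given Rapamycin it was at 11.1, 14.0 and 12.3 FPKM, above every DKO vehicle library (log2 fold change 0.79 ± 0.18, adjusted p = 0.018), a call that did not hold without DKO rapamycin replicates 2 or 3 or DKO vehicle replicates 1 or 3 (log2 fold change 0.69 to 0.80). In the Cagg cohort its levels overlapped between controls (10.3 to 13.4 FPKM) and Tsc2 KO (10.1 to 12.2).

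Lyz2, lysozyme of myeloid cells, and Tyrobp, the signalling adaptor of TREM2 and other myeloid receptors, rose in the drug cohort. Lyz2 was at 14.8, 12.8 and 6.79 FPKM in control vehicle and 27.1, 62.7 and 42.5 in Tsc2 KO vehicle (log2 fold change 1.95 ± 0.43, adjusted p = 0.0019). Tyrobp was at 3.93, 2.79 and 2.87 FPKM in control vehicle, 5.99, 16.3 and 11.0 in Tsc2 KO vehicle and 6.49, 4.11 and 3.19 in Tsc2 KO with Rapamycin. Neither gene overlapped between control vehicle and Tsc2 KO vehicle. Tyrobp rose in Tsc2 KO vehicle (log2 fold change 1.79 ± 0.35, adjusted p = 0.00079) and fell with Rapamycin (log2 fold change -1.27 ± 0.34, adjusted p = 0.011), the latter call lost without Tsc2 KO rapamycin replicate 3 or Tsc2 KO vehicle replicate 2 (log2 fold change -1.06 to -0.89). Fcer1g, an Fc receptor chain, was at 3.40 to 4.16 FPKM in control vehicle and 5.96 to 9.43 in Tsc2 KO vehicle and did not pass (adjusted p = 0.054).

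The other 8 genes of this group stayed under the FPKM minimum in the Tsc2 KO comparisons. With vehicle, 7 of them passed the adjusted p in Tsc2 KO against control (Adgre1, Mrc1, Itgam, Itgax, Cx3cr1, Ptprc and Trem2), while Aif1 did not (adjusted p = 0.053). Adgre1, Mrc1, Itgam, Itgax and Ptprc each lost this without Tsc2 KO vehicle replicate 2, Mrc1 also without Tsc2 KO vehicle replicate 3, and all but Itgax also without single control vehicle libraries, at log2 fold changes from 0.74 (Ptprc) to 2.23 (Itgam). Trem2, a lipid receptor of tissue macrophages, was at 0.170, 0 and 0.137 FPKM in control vehicle, 1.14, 0.695 and 0.678 in Tsc2 KO vehicle and 0.0231, 0.141 and 0.149 in DKO vehicle. Cx3cr1, the fractalkine receptor, was at 0.489, 0.659 and 0.930 FPKM in control vehicle, 2.40, 3.76 and 3.40 in Tsc2 KO vehicle and 0.925, 1.32 and 0.676 in DKO vehicle. For both genes every Tsc2 KO vehicle library exceeded every library of the other 2 groups. Against control vehicle the log2 fold change was 3.00 ± 0.80 for Trem2 (adjusted p = 0.0074) and 2.21 ± 0.43 for Cx3cr1 (adjusted p = 0.00076). In DKO vehicle against Tsc2 KO vehicle it was -2.96 ± 0.79 for Trem2 (adjusted p = 0.013), which did not pass without DKO vehicle replicate 1 (log2 fold change -2.52), and -1.72 ± 0.42 for Cx3cr1 (adjusted p = 0.0077). In Cagg Tsc2 KO, Trem2 (1.63 ± 0.39, adjusted p = 0.0081) and Cx3cr1 (1.04 ± 0.31, adjusted p = 0.025) were also higher, the latter not without Cagg Tsc2 KO replicate 3 or Cagg control replicates 2 or 3 (log2 fold change 0.80 to 1.11) and not with Xist as a covariate (log2 fold change 1.16). Itgam, the CD11b integrin chain, did not exceed 0.469 FPKM in any library but KSP DKO replicate 1, and Ptprc, the pan-leukocyte phosphatase CD45, reached 1.08 FPKM in the KSP Tsc2 KO group.

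**Figure D3:**
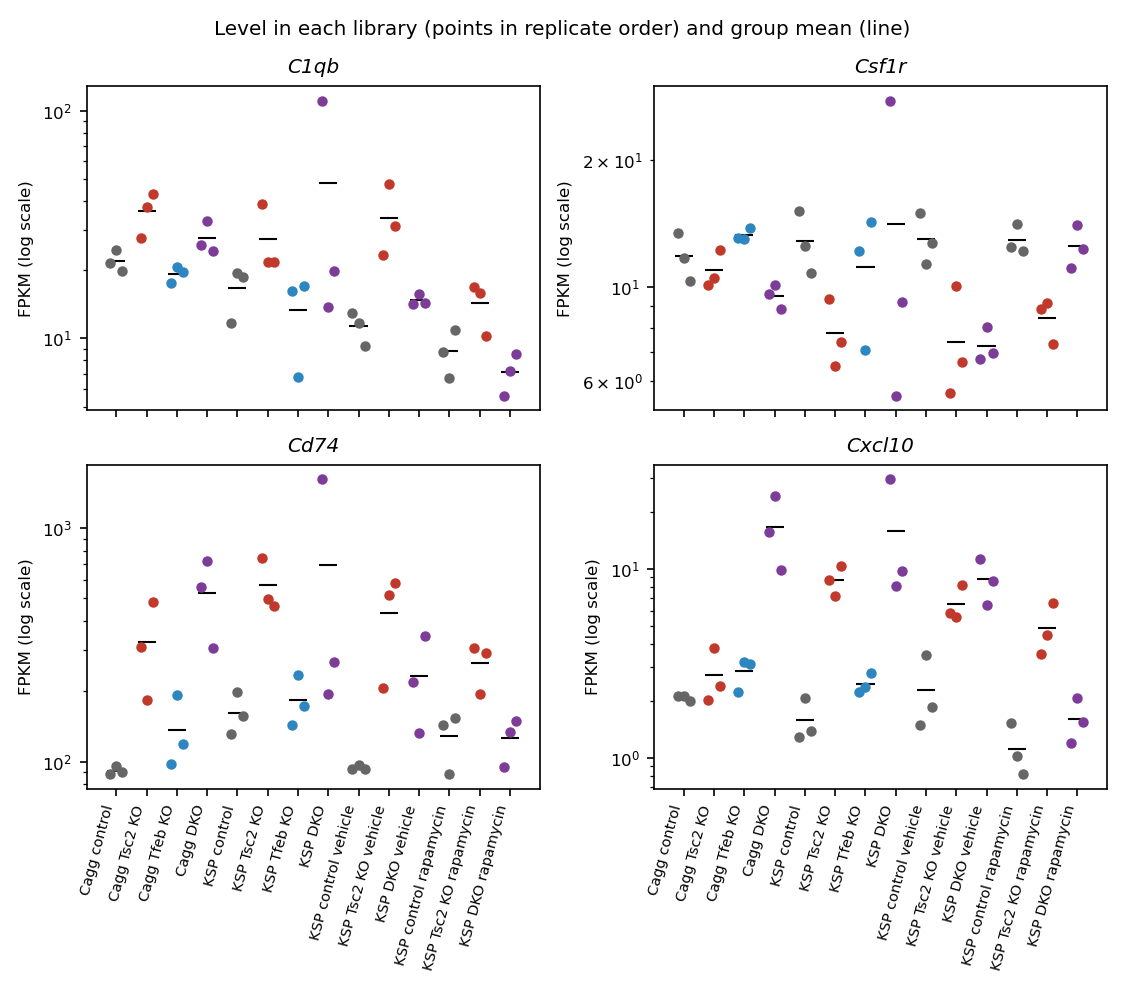
FPKM of C1qb, Csf1r, Cd74 and Cxcl10 in each library of the 14 groups, on a log axis, with points in replicate order and a line at the group mean. KSP DKO replicate 1 is the highest point of each of the 4 panels; C1qb and Cd74 are higher in Tsc2 KO vehicle than in control vehicle, and Csf1r is lower.

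The C1q chains lie side by side on mouse chromosome 4 (C1qb at chr4:136880129-136886187, minus strand, C1qc at chr4:136889804-136893065 and C1qa at chr4:136895917-136898803). In KSP Tsc2 KO against control 0 of 3 passed in edgeR or DESeq2, and 0 had an unadjusted p under 0.05 in edgeR, with log2 fold changes of 0.80 ± 0.60, 0.72 ± 0.66 and 0.80 ± 0.60 for C1qa, C1qb and C1qc. C1qb was at 21.3, 24.3 and 19.7 FPKM in Cagg controls and 27.6, 37.6 and 43.2 in Cagg Tsc2 KO. In the drug cohort C1qb was at 12.9, 11.7 and 9.23 FPKM in control vehicle, 23.1, 47.5 and 31.1 in Tsc2 KO vehicle and 14.2, 15.6 and 14.3 in DKO vehicle. Tsc2 KO did not overlap with control in either cohort, and DKO vehicle lay just above the control range. In Cagg Tsc2 KO, C1qb (log2 fold change 0.79 ± 0.17, adjusted p = 0.0038) and C1qc (log2 fold change 0.83 ± 0.20, adjusted p = 0.0076) rose, and C1qa did not pass in edgeR (0.58 ± 0.22, adjusted p = 0.063) but did in DESeq2 (adjusted p = 0.047). In Tsc2 KO vehicle all 3 rose, with log2 fold changes of 1.70 ± 0.32, 1.59 ± 0.26 and 1.66 ± 0.25 for C1qa, C1qb and C1qc (adjusted p of C1qa = 0.00058). In DKO vehicle all 3 fell against Tsc2 KO vehicle, by 1.03 ± 0.31, 1.21 ± 0.26 and 1.20 ± 0.24, C1qa not without DKO vehicle replicates 1, 2 or 3 or Tsc2 KO vehicle replicates 2 or 3 (log2 fold change -1.06 to -0.80).

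Rapamycin lowered all 3 C1q chains in Tsc2 KO, and C1qb and C1qc in DKO, where C1qa did not pass in edgeR (-0.97 ± 0.32, adjusted p = 0.087) and passed in DESeq2 (adjusted p = 0.036). In Tsc2 KO kidneys C1qc was at 11.6, 16.5 and 13.2 FPKM with vehicle and 6.90, 3.46 and 4.58 with Rapamycin, without overlap (log2 fold change -1.46 ± 0.24, adjusted p = 0.00032). C1qa and C1qb fell by 1.37 ± 0.32 and 1.24 ± 0.26 on the log2 scale. In DKO kidneys C1qb fell from 14.2, 15.6 and 14.3 FPKM to 5.60, 7.18 and 8.54 (log2 fold change -1.05 ± 0.26, adjusted p = 0.029) and C1qc from 6.06, 6.07 and 5.86 to 2.13, 2.95 and 4.11 (log2 fold change -0.96 ± 0.25, adjusted p = 0.032). The C1qb call in DKO was lost when any one of the 6 libraries was left out (log2 fold change -1.20 to -0.90), and the C1qc call was lost without DKO rapamycin replicates 1 or 2 or DKO vehicle replicates 1, 2 or 3 (log2 fold change -0.98 to -0.76). With Rapamycin the DKO libraries did not overlap with DKO vehicle for either chain, and all lay within or below the range of control vehicle.

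The FPKM ratio of C1qa to Csf1r was 0.681 to 0.729 in control vehicle, 3.71 to 4.54 in Tsc2 KO vehicle, 1.85 to 2.27 in DKO vehicle, 0.970 to 2.06 in Tsc2 KO with Rapamycin and 0.398 to 0.822 in DKO with Rapamycin. The 3 vehicle groups did not overlap. In the KSP cohort the ratio was 0.923 to 1.42 in controls, 2.91 to 3.93 in Tsc2 KO and 2.24 to 3.87 in DKO, where replicate 1 gave the highest value of its group. Cagg ratios were 1.91 to 2.14 in controls and 2.59 to 3.49 in Tsc2 KO. These are descriptions of the libraries, with no test.

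Class II antigen presentation genes rose in Tsc2 KO in the Cagg cohort and the vehicle arms, and none of them fell in Cagg DKO against Cagg Tsc2 KO. In KSP Tsc2 KO with all libraries 0 of the 4 passed in edgeR or DESeq2, and 2 of 4 had an unadjusted p under 0.05, with log2 fold changes of 1.80 ± 0.64 for Cd74 (adjusted p = 0.086), 1.35 ± 0.63 for H2-Aa, 1.40 ± 0.63 for H2-Ab1 and 1.12 ± 0.61 for H2-Eb1. Cd74 (chr18:60803848-60812646, plus strand), the invariant chain that chaperones MHC class II, was the most abundant of the genes described here. It was at 88.4, 95.9 and 90.8 FPKM in Cagg controls, 311, 184 and 483 in Cagg Tsc2 KO and 558, 720.2 and 307 in Cagg DKO, with both mutant groups above all controls. Cd74 rose in Tsc2 KO (log2 fold change 1.89 ± 0.36, adjusted p = 0.0023) and in DKO against control (log2 fold change 2.57 ± 0.37, adjusted p = 0.0011), and did not pass in Cagg DKO against Cagg Tsc2 KO (0.68 ± 0.35, adjusted p = 0.25). H2-Ab1, a class II beta chain, was at 30.3, 34.5 and 29.2 FPKM in Cagg controls, 92.3, 55.3 and 157 in Cagg Tsc2 KO and 147, 179.7 and 97.6 in Cagg DKO (log2 fold change 2.21 ± 0.32, adjusted p = 0.0011 for DKO against control). H2-Aa, the class II alpha chain, rose by 1.47 ± 0.38 in Tsc2 KO and 1.65 ± 0.39 in DKO, and H2-Eb1, a further beta chain, by 1.21 ± 0.36 and 1.38 ± 0.36. Cagg Tfeb KO also lay above all controls for Cd74 (97.7 to 192.8 FPKM), H2-Ab1 (47.3 to 68.7) and H2-Eb1 (50.9 to 93.1), and overlapped them for H2-Aa. None of these passed in edgeR in Cagg Tfeb KO against control. All Cagg Tfeb KO libraries were female and all Cagg controls male.

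Some of these Cagg calls rested on single libraries. In Tsc2 KO against control, H2-Aa did not pass without Cagg control replicate 1 (log2 fold change 1.39), and H2-Eb1 did not pass without Cagg Tsc2 KO replicates 1 or 3 or Cagg control replicates 1, 2 or 3 (log2 fold change 0.70 to 1.29). In DKO against control, H2-Aa did not pass without Cagg DKO replicates 1 or 2 or Cagg control replicates 1 or 3 (log2 fold change 1.44 to 1.62), and H2-Eb1 did not pass without Cagg DKO replicates 1 or 2 or Cagg control replicates 1, 2 or 3 (log2 fold change 1.23 to 1.47). The sexes were unbalanced here, and with Xist as a covariate H2-Aa (log2 fold change 1.28) and H2-Eb1 (0.95) in Tsc2 KO and H2-Eb1 in DKO (1.30) did not pass. Under the library names of the count table, C1qb, C1qc, H2-Ab1 and Il34 still rose in Cagg Tsc2 KO, no gene rose in Cagg DKO against control, and Cxcl10 did not pass in Cagg DKO against Cagg Tsc2 KO.

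In the vehicle arms all 4 class II genes rose in Tsc2 KO, and in edgeR none passed as lower with Rapamycin or in DKO vehicle against Tsc2 KO vehicle. DESeq2 called H2-Aa (log2 fold change -0.92, adjusted p = 0.028) and Cd74 (-0.91, adjusted p = 0.042) lower in DKO vehicle against Tsc2 KO vehicle, and none with Rapamycin. Cd74 was at 92.9, 97.0 and 93.4 FPKM in control vehicle, 207, 518 and 582 in Tsc2 KO vehicle and 219, 132 and 346 in DKO vehicle. Tsc2 KO and DKO lay above control and overlapped each other, with Tsc2 KO vehicle replicate 1 the lowest of its group. Cd74 rose in Tsc2 KO (log2 fold change 2.21 ± 0.37, adjusted p = 0.00023) and in DKO (log2 fold change 1.30 ± 0.36, adjusted p = 0.045), the latter not without DKO vehicle replicates 1 or 3 or control vehicle replicates 1, 2 or 3 (log2 fold change 0.89 to 1.33). H2-Aa, H2-Ab1 and H2-Eb1 had log2 fold changes of 1.72 ± 0.34, 1.51 ± 0.35 and 1.46 ± 0.35 in Tsc2 KO vehicle. With Rapamycin, Tsc2 KO kidneys had 307, 196 and 292 FPKM of Cd74, above every control vehicle library (-0.72 ± 0.36 against vehicle, adjusted p = 0.15).

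Promoters were searched because regulatory motifs of class II genes and of Cxcl10 are well known. RefSeq promoter windows of GRCm38.p6, 250 bases before to 50 after the start, were matched for 19 of the 33 genes (20 windows), and 4 are printed in lower case with the motif matches in capitals. The windows belong to 2 class II genes that rose and to 2 chemokines, the first a CXCR3 ligand and the second a neutrophil chemokine.
H2-Aa, chr17:34287774-34288073, minus strand: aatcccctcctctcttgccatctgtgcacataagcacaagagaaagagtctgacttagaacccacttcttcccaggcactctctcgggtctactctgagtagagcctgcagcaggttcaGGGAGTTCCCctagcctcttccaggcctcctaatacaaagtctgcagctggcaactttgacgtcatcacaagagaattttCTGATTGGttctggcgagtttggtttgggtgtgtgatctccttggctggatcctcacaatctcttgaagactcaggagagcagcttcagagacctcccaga
H2-Eb1, chr17:34305617-34305916, plus strand: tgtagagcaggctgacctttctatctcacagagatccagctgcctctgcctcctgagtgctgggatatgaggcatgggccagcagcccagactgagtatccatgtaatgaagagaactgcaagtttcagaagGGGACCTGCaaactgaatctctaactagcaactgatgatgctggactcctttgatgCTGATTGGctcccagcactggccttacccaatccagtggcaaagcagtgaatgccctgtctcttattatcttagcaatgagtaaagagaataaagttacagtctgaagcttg
Cxcl10, chr5:92348840-92349139, minus strand: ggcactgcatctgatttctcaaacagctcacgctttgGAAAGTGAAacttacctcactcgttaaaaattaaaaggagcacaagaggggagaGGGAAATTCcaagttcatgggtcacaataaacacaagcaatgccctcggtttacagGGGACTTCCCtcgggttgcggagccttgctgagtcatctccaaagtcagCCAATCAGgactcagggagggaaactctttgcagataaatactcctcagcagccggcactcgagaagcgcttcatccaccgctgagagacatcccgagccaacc
Cxcl1, chr5:90890995-90891294, plus strand: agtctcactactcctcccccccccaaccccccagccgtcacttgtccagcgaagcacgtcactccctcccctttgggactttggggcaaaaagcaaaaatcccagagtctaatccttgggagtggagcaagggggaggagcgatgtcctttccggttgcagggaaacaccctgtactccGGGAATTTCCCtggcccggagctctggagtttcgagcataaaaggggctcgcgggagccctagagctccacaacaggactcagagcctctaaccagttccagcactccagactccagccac

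Each motif was searched on both strands and its matches may overlap. CTGATTGG, the Y box bound by NF-Y, was in H2-Aa (51 bases before the start), H2-Eb1 (62) and Cxcl10 (54), 3 windows in all, and in 4.10% of all 32851 promoter windows. GGGANNTNC, an NF-kB type motif, was in 9 genes and in 15.1% of all windows. In Cxcl10 it began 159, 103 and 102 bases before the start, and in Cxcl1 71 and 69 bases, the closest pairs being overlapping matches on the opposite strands. GAAANNGAA, an interferon-response type motif, was in Aif1 and Cxcl10 (213 bases before the start) and in 8.56% of all windows. CACGTG, the core of the E-box that TFEB and related factors bind, was in none of the 20 windows and in 7.15% of all windows. A match describes the letters of these windows only.

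Complement genes moved in opposite directions. C3 (chr17:57203970-57228136, minus strand), the central complement protein, was at 13.2, 20.9 and 9.73 FPKM in Cagg controls and 58.7, 40.4 and 64.2 in Cagg Tsc2 KO. It was at 22.7, 17.9 and 8.24 in KSP controls and 85.3, 64.0 and 130.2 in KSP Tsc2 KO. In control vehicle it was at 37.3, 28.2 and 21.1 and in Tsc2 KO vehicle at 74.8, 73.2 and 59.1 FPKM. Tsc2 KO exceeded control without overlap in all 3 cohorts, and C3 rose by 1.96 ± 0.38 (adjusted p = 0.0023), 2.51 ± 0.61 (adjusted p = 0.018) and 1.26 ± 0.28 (adjusted p = 0.0023). The KSP call was lost without Tsc2 KO replicate 3 or control replicates 2 or 3 (log2 fold change 2.20 to 2.59). In Cagg DKO C3 was at 53.7, 44.4 and 33.7 FPKM (log2 fold change 1.63 ± 0.38, adjusted p = 0.016 against control), a call lost without Cagg DKO replicate 1 or Cagg control replicates 1 or 3 (log2 fold change 1.40 to 1.55). C3 fell with Rapamycin in Tsc2 KO to 37.4, 23.9 and 45.2 FPKM (log2 fold change -0.96 ± 0.28, adjusted p = 0.018), though not without Tsc2 KO rapamycin replicate 2 or Tsc2 KO vehicle replicate 1 (log2 fold change -0.90 to -0.74).

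C4b (chr17:34728380-34743882, minus strand), of the classical pathway, was at 1.37, 1.93 and 0.422 FPKM in control vehicle, 6.78, 10.2 and 9.68 in Tsc2 KO vehicle and 2.63, 5.22 and 2.26 in DKO vehicle. The Tsc2 KO libraries stood above both other groups, and C4b rose against control (log2 fold change 2.83 ± 0.59, adjusted p = 0.0012). It fell with Rapamycin in Tsc2 KO to 4.72, 1.60 and 2.37 FPKM (log2 fold change -1.61 ± 0.56, adjusted p = 0.039), a call lost without Tsc2 KO rapamycin replicates 2 or 3 or Tsc2 KO vehicle replicates 2 or 3 (log2 fold change -1.55 to -1.32) and with the replicate number as a block (log2 fold change -1.52). In Cagg Tsc2 KO C4b passed the adjusted p under the FPKM minimum, at 5.45, 5.83 and 2.62 against 0.992, 2.18 and 1.10 FPKM (1.76 ± 0.38, adjusted p = 0.0048).

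Cfb (chr17:34856374-34862518, minus strand), factor B of the alternative pathway, stood at 3.90, 2.86 and 4.58 FPKM in control vehicle and 1.50, 1.78 and 2.62 in Tsc2 KO vehicle. DKO vehicle was at 4.36, 3.06 and 3.42 and Tsc2 KO with Rapamycin at 5.70, 3.15 and 3.57 FPKM. Tsc2 KO vehicle lay below all 3 other groups. Its means stayed under the FPKM minimum, so Cfb was not counted, but it passed the adjusted p in Tsc2 KO against control (-0.94 ± 0.26, adjusted p = 0.0084), in DKO against Tsc2 KO (0.87 ± 0.26, adjusted p = 0.022) and with Rapamycin (1.07 ± 0.26, adjusted p = 0.0048). The DKO value did not pass without DKO vehicle replicate 1 or Tsc2 KO vehicle replicates 1 or 2 (log2 fold change 0.71 to 0.79). In the Cagg cohort Cfb was at 4.35, 4.23 and 3.58 FPKM in controls and 2.19, 2.27 and 2.72 in DKO (-0.72 ± 0.19, adjusted p = 0.032), not passing without Cagg DKO replicates 1, 2 or 3 or Cagg control replicates 1 or 2 (log2 fold change -0.83 to -0.66). Under the count-table names this Cagg DKO value did not pass either (log2 fold change -0.44, adjusted p = 0.56). The FPKM ratio of C3 to Cfb was 4.61 to 9.85 in control vehicle, 22.5 to 49.7 in Tsc2 KO vehicle, 13.4 to 17.8 in DKO vehicle and 6.56 to 12.7 in Tsc2 KO with Rapamycin. The 3 vehicle groups did not overlap in this ratio.

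Among chemokines Cxcl16 rose with Tsc2 loss in every cohort (in the Cagg cohort not under the count-table names, log2 fold change 1.02, adjusted p = 0.073), and Cxcl10 was called in Tsc2 KO against control in the KSP cohort and the vehicle arms and in DKO against control in all 3 cohorts. Cxcl16 (chr11:70453983-70459984, minus strand), a membrane-bound ligand of CXCR6 and a scavenger receptor, was at 8.93, 11.9 and 11.3 FPKM in control vehicle, 32.9, 33.7 and 31.5 in Tsc2 KO vehicle and 17.6, 16.2 and 17.2 in DKO vehicle. The groups did not overlap, and Cxcl16 rose in Tsc2 KO (log2 fold change 1.61 ± 0.14, adjusted p = 3.9e-07), with the DKO level lower than in Tsc2 KO (log2 fold change -0.95 ± 0.14, adjusted p = 0.00018) and above control (log2 fold change 0.67 ± 0.14, adjusted p = 0.011). Rapamycin brought Tsc2 KO to 15.0, 10.1 and 13.9 FPKM (log2 fold change -1.33 ± 0.14, adjusted p = 5.3e-06), overlapping control vehicle. In DKO with Rapamycin it was at 11.8, 12.6 and 12.2 FPKM (-0.47 ± 0.14, adjusted p = 0.057). Cagg kidneys had Cxcl16 at 14.9, 15.0 and 15.7 FPKM in controls, 34.2, 30.9 and 23.2 in Tsc2 KO and 31.6, 31.9 and 22.3 in DKO. It rose in Cagg Tsc2 KO (log2 fold change 1.02 ± 0.16, adjusted p = 0.00058), in Cagg DKO (log2 fold change 0.95 ± 0.16, adjusted p = 0.0027) and in KSP Tsc2 KO (log2 fold change 1.27 ± 0.24, adjusted p = 0.005).

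Cxcl10 (chr5:92346638-92348889, minus strand), an interferon-inducible ligand of CXCR3, was at 2.12, 2.11 and 2.00 FPKM in Cagg controls, 2.01, 3.82 and 2.39 in Cagg Tsc2 KO and 15.6, 24.1 and 9.80 in Cagg DKO. The DKO libraries lay apart from both, above Tsc2 KO (log2 fold change 2.58 ± 0.32, adjusted p = 0.00083) and control (log2 fold change 3.03 ± 0.33, adjusted p = 0.00013). Under the count-table names, which exchange 1 DKO and 1 Tfeb KO library, neither passed (log2 fold change 2.16, adjusted p = 0.10 and 2.61, adjusted p = 0.43). In the KSP cohort it was at 1.28, 2.06 and 1.38 FPKM in controls, 8.70, 7.14 and 10.3 in Tsc2 KO and 29.7, 8.06 and 9.70 in DKO, and it rose in Tsc2 KO (log2 fold change 2.46 ± 0.44, adjusted p = 0.0041) and DKO (log2 fold change 3.33 ± 0.45, adjusted p = 0.0054). Without KSP DKO replicate 1 the DKO value was 2.49 (adjusted p = 0.0010). With vehicle it was at 1.49, 3.49 and 1.86 FPKM in controls, 5.82, 5.52 and 8.21 in Tsc2 KO and 11.3, 6.45 and 8.57 in DKO. Both mutant groups exceeded controls and overlapped each other, with 1.52 ± 0.34 in Tsc2 KO (adjusted p = 0.0024) and 1.94 ± 0.35 in DKO (adjusted p = 0.0043).

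Rapamycin lowered Cxcl10 in DKO from 11.3, 6.45 and 8.57 FPKM to 1.20, 2.07 and 1.55 (log2 fold change -2.44 ± 0.35, adjusted p = 0.00098). In Tsc2 KO it was at 3.52, 4.45 and 6.57 FPKM with Rapamycin, overlapping vehicle (-0.42 ± 0.33, adjusted p = 0.37). The difference between these effects was -2.01 ± 0.48 (adjusted p = 0.018), and it did not pass without DKO rapamycin replicate 3, DKO vehicle replicate 1 or Tsc2 KO vehicle replicate 2 (log2 fold change -1.99 to -1.79). In control kidneys Cxcl10 was at 1.52, 1.02 and 0.818 FPKM with Rapamycin (-1.03 ± 0.36, adjusted p = 0.38).

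**Figure D4:**
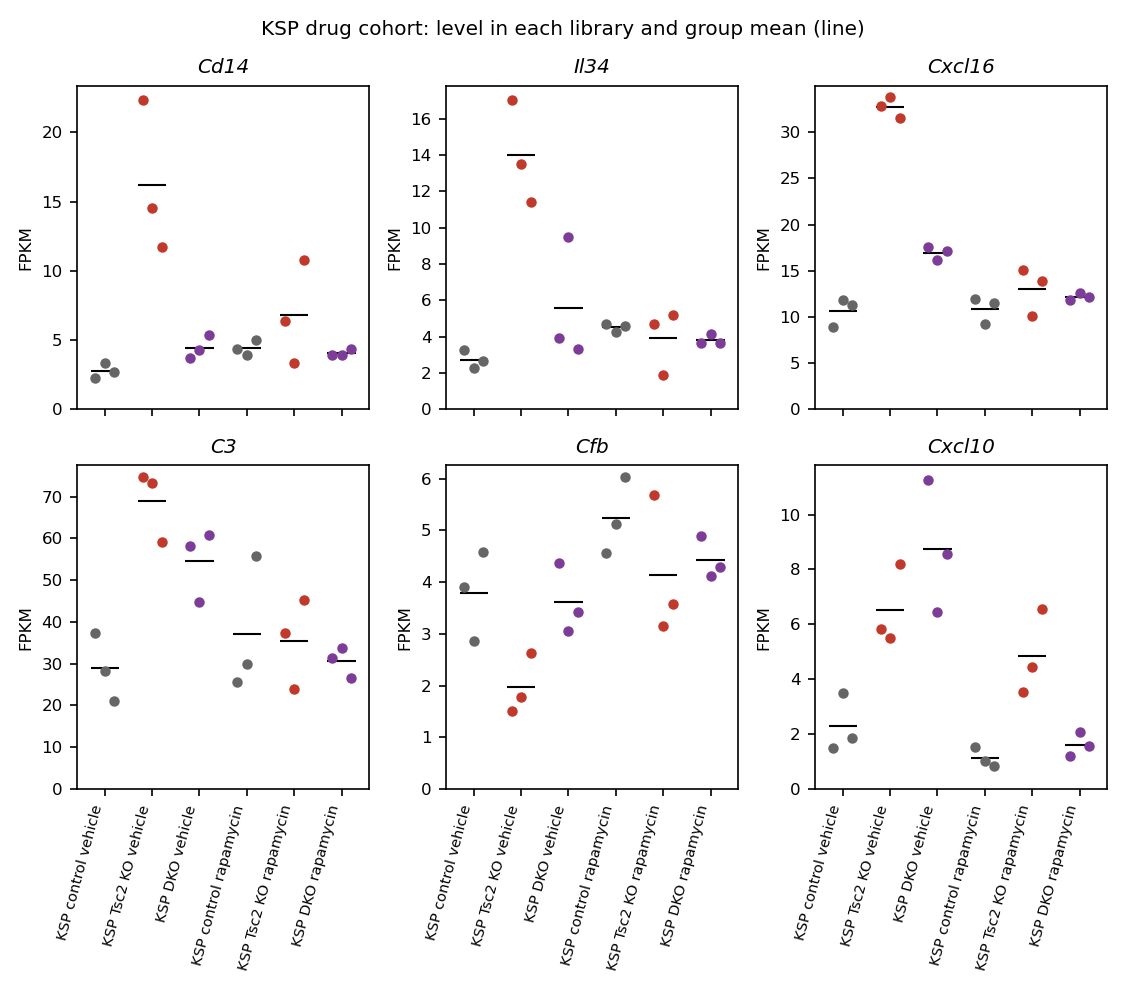
FPKM of Cd14, Il34, Cxcl16, C3, Cfb and Cxcl10 in each library of the 6 groups of the drug cohort, on linear axes from 0, with a line at the group mean. Cd14, Il34, Cxcl16 and C3 peak in Tsc2 KO vehicle, Cfb is lowest there, and Cxcl10 is high in both mutant vehicle groups and low in DKO with Rapamycin.

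Ccl2, which recruits CCR2-bearing monocytes, passed the adjusted p in Tsc2 KO of all 3 cohorts at levels under the FPKM minimum. In the Cagg cohort it did not pass under the count-table names (log2 fold change 2.425, adjusted p = 0.078). It was at 1.07, 0.224 and 0.450 FPKM in Cagg controls and 3.13, 3.34 and 2.49 in Cagg Tsc2 KO, without overlap (2.43 ± 0.57, adjusted p = 0.0072). In the KSP cohort Ccl2 had a log2 fold change of 3.27 ± 0.91 (adjusted p = 0.034), not passing without Tsc2 KO replicates 1 or 3 or control replicates 1, 2 or 3 (log2 fold change 2.93 to 3.54). Vehicle-treated Tsc2 KO had 2.13 ± 0.75 (adjusted p = 0.033), not passing without Tsc2 KO vehicle replicates 2 or 3 or control vehicle replicates 1 or 3 (log2 fold change 1.53 to 2.08). Cxcl1, which draws neutrophils through CXCR2, was at 0.0683, 0.103 and 0.0890 FPKM in KSP controls and 2.48, 0.626 and 1.60 in KSP Tsc2 KO (4.11 ± 0.80, adjusted p = 0.0062). With vehicle Cxcl1 was at 0.0560, 0.466 and 0.0657 in control, 2.70, 0.987 and 0.731 in Tsc2 KO and 0.183, 0.373 and 0.295 FPKM in DKO (-2.35 ± 0.72 for DKO against Tsc2 KO, adjusted p = 0.028), the DKO value not passing without DKO vehicle replicates 1 or 3 or Tsc2 KO vehicle replicate 1 (log2 fold change -2.38 to -1.58). With Rapamycin Tsc2 KO was at 0.829, 0.642 and 2.64 FPKM, overlapping vehicle.

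Ccl5, a chemokine that attracts T cells, was at 1.15, 1.12 and 1.07 FPKM in Cagg controls, 0.371, 0.584 and 1.42 in Tsc2 KO and 6.62, 4.70 and 3.08 in DKO. Its DKO libraries exceeded the control and Tsc2 KO libraries, and it passed the adjusted p in DKO against Tsc2 KO (2.59 ± 0.50, adjusted p = 0.0085), with a mean just under the FPKM minimum. Cx3cl1, the membrane-anchored ligand of CX3CR1, rose in Cagg Tsc2 KO, from 21.9, 20.9 and 17.6 to 27.6, 29.9 and 25.7 FPKM (log2 fold change 0.53 ± 0.16, adjusted p = 0.029), a call lost without Cagg Tsc2 KO replicates 1 or 2 or Cagg control replicates 1, 2 or 3 (log2 fold change 0.44 to 0.58). With vehicle Cx3cl1 was at 13.2 to 18.8 FPKM in control and 9.71 to 22.1 in Tsc2 KO, overlapping (adjusted p = 0.88). Ccl7, a further CCR2 ligand, was at 0 to 0.278 FPKM in KSP controls and 0.733 to 0.820 in KSP Tsc2 KO (adjusted p = 0.21).

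The ligands of CSF1R differed. Il34 (chr8:110741829-110805924, minus strand) was at 6.04, 4.77 and 4.70 FPKM in Cagg controls and 15.4, 12.1 and 11.6 in Cagg Tsc2 KO. Vehicle-treated kidneys had 3.27, 2.29 and 2.67 FPKM of Il34 in control, 17.0, 13.5 and 11.4 in Tsc2 KO and 3.93, 9.50 and 3.30 in DKO. Tsc2 KO exceeded control and DKO without overlap. Il34 rose in Cagg Tsc2 KO (log2 fold change 1.40 ± 0.23, adjusted p = 0.00088) and in Tsc2 KO vehicle (log2 fold change 2.35 ± 0.37, adjusted p = 0.00013), and was lower in DKO vehicle than in Tsc2 KO vehicle (log2 fold change -1.33 ± 0.36, adjusted p = 0.014), though not without DKO vehicle replicates 1 or 3 or Tsc2 KO vehicle replicate 1 (log2 fold change -1.17 to -1.06). With Rapamycin Tsc2 KO was at 4.70, 1.88 and 5.21 FPKM (log2 fold change -1.82 ± 0.36, adjusted p = 0.0014). In Cagg DKO Il34 was at 11.8, 8.49 and 6.52 FPKM (log2 fold change 0.83 ± 0.23, adjusted p = 0.039 against control), a call lost without Cagg DKO replicates 1 or 2 or Cagg control replicates 1, 2 or 3 (log2 fold change 0.58 to 0.95).

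Csf1 passed in none of the Tsc2 KO comparisons, with 0.48 ± 0.19 in the Cagg cohort (adjusted p = 0.071), 0.19 ± 0.38 in the KSP cohort (adjusted p = 0.8) and 0.60 ± 0.32 in the vehicle arms (adjusted p = 0.15). The FPKM ratio of Il34 to Csf1 was 1.05 to 1.80 in control vehicle, 3.14 to 8.20 in Tsc2 KO vehicle and 1.54 to 2.67 in DKO vehicle, where Tsc2 KO did not overlap with the others. Tnf, the inflammatory cytokine, was listed at 0 in 6 libraries. The low-count filter of edgeR removed it, while DESeq2 did test it.

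Untreated KSP DKO depended on 1 library. In replicate 1, 30 of the 33 genes exceeded the mean of replicates 2 and 3 by 2-fold or more, and 21 by 5-fold or more, with a median of 6.23-fold and a highest value of 50.6-fold for Tnf. The share of all genes at these folds is not given, so the excess cannot be called particular to the 33 genes. Lyz2 was at 403, 23.2 and 27.5 FPKM and Cd74 at 1619, 195 and 268 FPKM in the 3 replicates. Cfb was the only gene lower in replicate 1 (0.739-fold). The summed T cell markers were 45.5 FPKM in that library and at most 5.57 in every other library; B cell markers summed to 39.6, NK cell markers to 34.5 and neutrophil markers to 25.5 FPKM. Kidney tubule markers summed to 4281 to 5578 FPKM over the 3 KSP DKO libraries. The part of these cell types in the KSP DKO results was not tested.

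**Figure D5:**
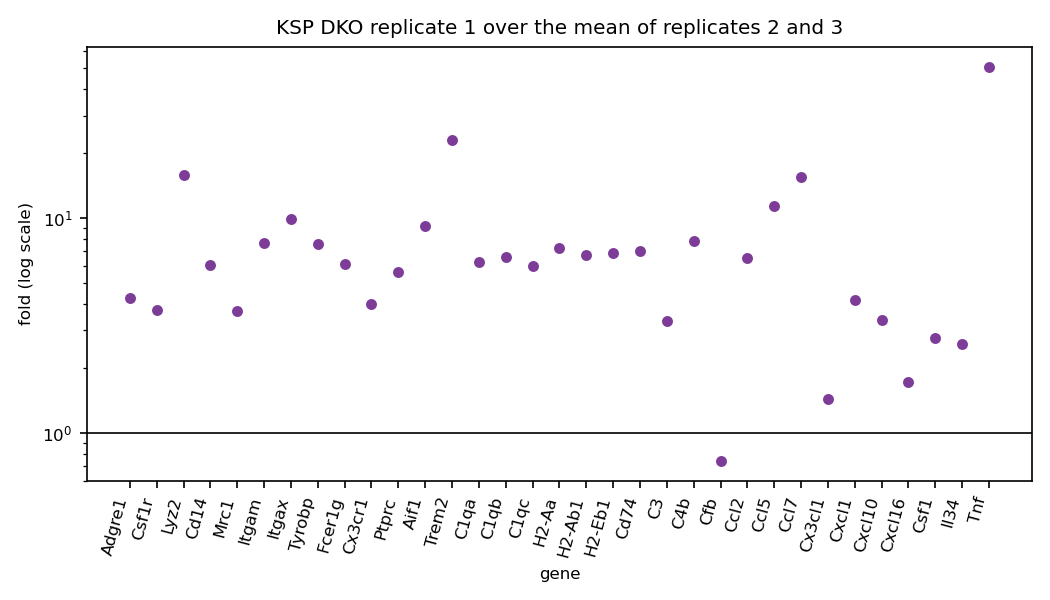
Level of each gene in KSP DKO replicate 1 divided by the mean of replicates 2 and 3, on a log axis. The median is 6.23-fold, and Cfb alone lies below 1.

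Without replicate 1, Cxcl10 was the 1 gene called in KSP DKO against control. Cxcl16 was called with all libraries (log2 fold change 1.13 ± 0.24, adjusted p = 0.03) but not without DKO replicates 1 or 3 or control replicates 1, 2 or 3 (log2 fold change 0.82 to 1.24). Cd14 was then at 4.78 and 6.43 FPKM, Il34 at 2.86 and 4.54, and Csf1r at 5.53 and 9.21. With it left out of the joint fit, 10 genes rose in KSP Tsc2 KO against control: Lyz2, Cd14, H2-Aa, H2-Ab1, H2-Eb1, Cd74, C3, Cxcl10, Cxcl16 and Il34. Cd14 (log2 fold change 1.87, adjusted p = 0.0022) and Cd74 (1.80, adjusted p = 0.0011) were among the clearest of these. Cd14 was at 3.67, 5.66 and 4.88 FPKM in KSP controls and 20.5, 11.1 and 20.4 in KSP Tsc2 KO, and Cd74 at 131, 199.7 and 157 and 745, 498 and 462, both without overlap. With 2 libraries left, the DKO group is assumed to vary like the other groups. Of these genes, 0 passed in KSP DKO against KSP Tsc2 KO without replicate 1 too.

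Other genes of the same pathways were taken from lists of names. Of 31 further macrophage genes, 8 reached the FPKM minimum in the vehicle arms, 7 rose and 1 fell in Tsc2 KO, against 23.8% and 24.6% of all genes. In KSP Tsc2 KO 3 of 9 rose and 1 fell, against 9.42% and 8.74%. With vehicle the lysosomal glycoprotein Cd68 (2.88 ± 0.29), the galectin Lgals3 (3.05 ± 0.19) and Apoe (2.07 ± 0.40) rose, and Mertk, the receptor for the uptake of dying cells, fell (-1.58 ± 0.19). All 31 summed to 282 to 409.9 FPKM in control vehicle, 1112 to 1750.0 in Tsc2 KO vehicle and 597 to 1382 in DKO vehicle. In DKO vehicle against Tsc2 KO vehicle 4 of 8 fell (12.6% of all genes), among them Cd68 (-1.74 ± 0.28), and Mertk rose (1.07 ± 0.19). Several genes of this list, such as Cd68, Apoe and Lgals3, are also made by kidney epithelium or belong to lysosomes.

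Antigen presentation genes other than the 4 above were also counted. With vehicle, 8 of 8 at the FPKM minimum rose in Tsc2 KO (23.8% of all genes), including H2-K1 (1.98 ± 0.22), a class I heavy chain, and B2m (1.53 ± 0.19), and 4 of 8 fell in DKO vehicle against Tsc2 KO vehicle (12.6% of all genes). In KSP Tsc2 KO 0 of 8 passed in edgeR and 2 of 8 rose in DESeq2, and 5 of the 14 tested had an unadjusted p under 0.05 in edgeR. With vehicle, Ciita, the transactivator of class II genes, passed the adjusted p under the minimum (1.83 ± 0.39). Of the interferon and NF-kB target genes 9 of 13 rose in Tsc2 KO vehicle (23.8% of all genes), with Irf7 at 2.25 ± 0.27 and Icam1 at 1.45 ± 0.25. Of these 13, 1 fell (Gbp3, -1.09 ± 0.27), where 24.6% of all genes fell. Against control, 7 of 14 rose in KSP Tsc2 KO (9.42% of all genes). In KSP DKO with replicate 1 included, 7 of 14 rose (2.33%). With the FPKM-table names, 5 of 12 rose in Cagg Tsc2 KO (23.0%) and 12 of 15 in Cagg DKO (10.2%).

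Complement genes beyond C1q, C3, C4b and Cfb were called in both directions. Of 12 at the minimum in the vehicle arms, 2 rose and 2 fell in Tsc2 KO, against 23.8% and 24.6% of all genes, and in KSP Tsc2 KO 2 of 11 rose and 1 fell, against 9.42% and 8.74%. With vehicle, Cfi (2.05 ± 0.52), the protease that inactivates C3b, and Clu (1.65 ± 0.21), an inhibitor of the terminal complex, rose, and the terminal components C8a (-7.99 ± 0.81, from 9.83, 6.45 and 8.64 FPKM to 0, 0.0363 and 0.0559) and C8g (-1.25 ± 0.22) fell. Of 6 further chemokine and cytokine genes at the minimum 2 rose and 1 fell, near the same shares: Spp1 (2.39 ± 0.25) and Tgfb1 (1.40 ± 0.22) rose and Cxcl12 fell (-2.09 ± 0.37). Among receptors of the ligands described here, Tnfrsf1a rose (0.59 ± 0.15), and Ccr2, the CCL2 receptor, passed under the minimum (1.58 ± 0.53).

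Outside KSP DKO replicate 1, the highest summed level of T cell markers was 5.57 FPKM (Cagg DKO replicate 1), of B cell markers 17.6 (DKO vehicle replicate 2), of NK cell markers 4.49 and of neutrophil markers 9.37 (both Cagg Tfeb KO replicate 2), and of dendritic cell markers 5.11 (Cagg Tfeb KO replicate 3). In the vehicle arms T cell markers summed to 1.07 to 2.34 FPKM in control and 0.764 to 3.41 in Tsc2 KO, B cell markers to 3.87 to 7.16 and 2.12 to 7.20, NK cell markers to 0.414 to 1.08 and 0.270 to 1.25, neutrophil markers to 0.689 to 1.38 and 1.05 to 3.08, and dendritic cell markers to 1.65 to 2.29 and 1.30 to 2.22. These ranges overlapped, and no gene of these lists reached the FPKM minimum in either group. The B cell marker Ms4a1 passed the adjusted p under that minimum in Tsc2 KO vehicle (2.85 ± 0.75, adjusted p = 0.007) and in DKO vehicle (3.06 ± 0.75, adjusted p = 0.024) against control. Ly6g, which defines neutrophils, was at 0 in all libraries of 9 groups. Of 12 kidney tubule markers, 7 fell and 1 rose in Tsc2 KO vehicle, where 24.6% of all genes fell and 23.8% rose, and 8 rose and 1 fell with Rapamycin in Tsc2 KO, where 21.2% rose and 17.3% fell. Of 7 markers of glomerulus and endothelium, 5 fell in Tsc2 KO vehicle, and 3 of 5 fibroblast markers at the minimum rose. In DKO vehicle against Tsc2 KO vehicle, 8 of 12 kidney tubule markers rose and 1 fell. In the same comparison, 4 of 6 markers of glomerulus and endothelium at the minimum rose, and 1 of 5 fibroblast markers fell. Of all 7950 genes at the minimum in this comparison, 1345 rose and 1003 (12.6%) fell. The part of these cell types in the levels described above was not tested.

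Reads were counted without strand information, so genes that overlap one of the 33 cannot be told apart from it where they share sequence. Such neighbours in the annotation are Hmgxb3 at Csf1r, Zmynd15 at Cxcl16, Art3 at Cxcl10, Gm20547 at Cfb, Gm49368 at Itgam, Gm33858 at Cx3cr1 and Mir5107 at Cd74. Values of these genes are uncertain to that extent.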

How the data were processed

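Poly-A RNA of 42 mouse kidneys was sequenced without strand information. The authors deposited gene count tables, raw read counts per gene, for each of the 3 cohorts. The authors also deposited FPKM tables, which scale each count by gene length and library size. Per the labels' processing notes the build was mm10, and STAR 2.6.1d, HISAT2 2.0.5, featureCounts 1.5.0-p3 and DESeq2 1.20.0 were used; their roles are not given in the sources used here. The deposited tables' columns were all mapped to samples (0 unmapped columns).

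Counts were tested with R 4.3.3 and edgeR 4.0.16 (quasi-likelihood test, TMM normalization, filterByExpr by group, limma 3.58.1 loaded with it), fitting all groups of a cohort together, with Benjamini-Hochberg adjustment over 16348 (Cagg), 16631 (KSP) and 17027 (drug) genes. The threshold was an adjusted p of 0.05 and 5 FPKM, both from the study's methods; applying the latter to the mean of either compared group was a choice made here. The SE is the absolute log2 fold change divided by the root of F. The procedure was tested on simulated data. Median library depth was 17841764, 17049073 and 18173810 counts. A p-value sets the difference between groups of 3 mice against the spread between mice. That spread was estimated from all libraries of the cohort and shared in part across genes. An exact permutation test of 3 against 3 cannot go below 0.1, so none was used.

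All 33 genes are accounted for; values per library are printed for genes at 5 FPKM or passing the adjusted p, choosing within each role those with the largest change in Tsc2 KO. The genes and lists were chosen with earlier results of these data known. Alternatives were DESeq2 1.42.0, RLE normalization, no low-count filter, no FPKM minimum, only the groups compared, each library left out, a replicate block, Xist as covariate and the count-table names (Cagg). The same library has proportional values in the count and FPKM tables, which is how the 4 names that differ were found. Replicate numbers paired the samples only for KSP DKO against KSP Tsc2 KO, where deviations of same-numbered libraries correlated at 0.241, 0.203 and 0.245; with the replicate block that comparison still called 0 genes.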

Additional observations from a re-analysis of the deposited data

Results flagged for a closer look

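Rapamycin lowered several genes more in Tsc2 KO than in control kidneys, by the test of the difference of the effects in edgeR. The difference on the log2 scale was -1.34 for C1qa, -1.93 for Cd14, -1.87 for Tyrobp, -1.32 for C3, -1.36 for Cxcl16 and -2.54 for Il34. In control kidneys these genes had log2 fold changes with Rapamycin of -0.02, 0.69, 0.60, 0.36, 0.03 and 0.72 in the same order, none of which passed. C1qa did not pass without Tsc2 KO rapamycin replicates 2 or 3, Tsc2 KO vehicle replicates 2 or 3, control rapamycin replicates 1 or 3 or control vehicle replicates 2 or 3 (log2 fold change -1.36 to -1.11), and C3 did not pass without Tsc2 KO rapamycin replicate 2, Tsc2 KO vehicle replicates 1 or 2, control rapamycin replicate 3 or control vehicle replicates 2 or 3 (log2 fold change -1.30 to -0.91).

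The Rapamycin effect also differed between DKO and Tsc2 KO: the difference was -2.01 for Cxcl10 and 0.85 for Cxcl16. Cxcl10 was the gene with the more negative effect in DKO; it did not pass without DKO rapamycin replicate 3, DKO vehicle replicate 1 or Tsc2 KO vehicle replicate 2 (log2 fold change -1.99 to -1.79).

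Cfb stood higher in every DKO vehicle library than in every Tsc2 KO vehicle library, and lower in every Cagg DKO library than in every Cagg Tsc2 KO library; the log2 ratio of the group mean FPKM values (DKO over Tsc2 KO) differed by 1.23 between the cohorts, and this difference was not tested. In untreated KSP, Cfb was at 1.74, 2.77 and 1.95 FPKM in DKO and 1.92, 1.91 and 2.92 in Tsc2 KO, which overlapped. Under the count-table names a library with 3.70 FPKM counts as Cagg DKO, which then overlaps Cagg Tsc2 KO (log2 fold change -0.09).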

How the results depend on the processing

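No result reversed under any alternative. Of 105 results on single genes that passed, DESeq2, RLE normalization and no low-count filter each kept all 105, fitting only the groups compared kept 91, leaving out a library kept 519 of 689, Xist as covariate kept 26 of 30 and the count-table names kept 8 of 30. Under the count-table names the genes called went from 11 to 4 in Cagg Tsc2 KO, from 9 to 0 in Cagg DKO against control and from 1 to 0 in Cagg DKO against Tsc2 KO. A DKO and a Tfeb KO library, whose Tsc2 levels go with the FPKM-table names, exchange genotype there. The Tsc2 KO and control libraries keep theirs, and there the folds hardly moved (Cxcl16 1.02 ± 0.16 with the FPKM-table names, 1.02 ± 0.37 with the others). Without the FPKM minimum the counts were 2 (Cagg DKO against Tsc2 KO), 5 (KSP Tsc2 KO), 26 (Tsc2 KO vehicle), 10 (DKO against Tsc2 KO vehicle) and 14 (Rapamycin in Tsc2 KO). Without the low-count filter they were 3 (Cagg DKO against Tsc2 KO), 1 (Cagg Tfeb KO), 8 (KSP DKO against control) and 6 (KSP Tsc2 KO). DESeq2 gave 4 in KSP DKO against control, 5 in KSP Tsc2 KO, 8 with Rapamycin in DKO, 9 in DKO vehicle against Tsc2 KO vehicle, 6 in DKO vehicle against control vehicle and 13 in Cagg Tsc2 KO. Fitting only the groups compared gave 1 in KSP DKO against control, 11 in KSP Tsc2 KO (10 higher, 1 lower) and 2 in DKO vehicle against control vehicle. The cause of these shifts was not tested.

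Leaving out 1 library gave 8 to 11 genes in Cagg Tsc2 KO, 5 to 9 in Cagg DKO against control (5 without Cagg DKO replicate 1 or Cagg control replicates 1 or 3), 1 to 2 in Cagg DKO against Tsc2 KO (2 without Cagg DKO replicate 2 or Cagg Tsc2 KO replicate 3), 2 to 10 in KSP Tsc2 KO (10 without KSP DKO replicate 1), 1 to 5 in KSP DKO against control (5 without KSP DKO replicate 2, 1 without KSP DKO replicate 1 or any control), 16 to 16 in Tsc2 KO vehicle, 4 to 9 in DKO vehicle against Tsc2 KO vehicle (4 without DKO vehicle replicate 1, 9 without Tsc2 KO vehicle replicate 1), 3 to 4 in DKO vehicle against control, 7 to 12 with Rapamycin in Tsc2 KO and 1 to 2 with Rapamycin in DKO, where each of the 6 libraries lowered the count from 4. For the difference in Rapamycin effects it gave 4 to 10 between Tsc2 KO and control (10 without Tsc2 KO vehicle replicate 1) and 1 to 3 between DKO and Tsc2 KO (1 without DKO rapamycin replicate 3, DKO vehicle replicate 1 or Tsc2 KO vehicle replicate 2), and 0 to 0 in both Tfeb KO comparisons, KSP DKO against Tsc2 KO and control with Rapamycin.

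With the replicate number as a block, 100 of 105 single-gene results held, and KSP DKO against control called 1 gene instead of 2. Apart from KSP DKO against KSP Tsc2 KO, no comparison had a correlation of deviations over 0.1 in every same-numbered pair, so these libraries are taken to share only a number. In Cagg Tsc2 KO against control (0.119, 0.136 and 0.05) and DKO vehicle against Tsc2 KO vehicle (0.129, 0.05 and 0.332) all 3 were positive. The results not kept were Cxcl16 in KSP DKO against control (1.08), Mrc1 (-1.29), Itgam (-2.21) and C4b (-1.52) with Rapamycin in Tsc2 KO, and the difference in Rapamycin effect for Cx3cr1 (-1.80). At these depths a gene under 1 FPKM, such as Itgam, Trem2 or Tnf, rested on few reads, which limits the precision of its fold change.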
